A study of Danio rerio with 2 samples.

Results

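The 35 genes described here are 16 genes of DNA replication and 19 genes of mitosis. They were chosen by name, with no limit on their counts but with earlier results of these data known. All 35 names occur in the gene list of the files, on 37 of its 25743 rows. Their unique molecular identifier (UMI) counts were summed per cell into a replication sum and a mitosis sum, and both sums were compared between classes of cells and between the genotypes.

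Before it divides, a cell copies its DNA in S phase and then separates the copies in mitosis. Many replication genes are switched on by E2F factors as S phase begins, whereas most mitosis genes are transcribed later, when DNA has been copied, and their proteins are degraded as mitosis ends. In an unsorted mix of cell cycle stages the replication transcripts therefore mark cells near S phase and the mitosis transcripts mark cells before or in division, and a high summed level can come from more such cells or from more RNA in each.

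The cells came from zebrafish embryos at the 20-somite stage that carried UAS:GFP and the gene trap allele etv2ci32Gt, either heterozygous or homozygous, with 1 Chromium library per genotype, each from pooled embryos and sorted for GFP. The trap places gal4 in the coding sequence of etv2, the ETS factor that starts vascular development, so that GFP follows the etv2 promoter while the allele is interrupted. Heterozygous cells carry the trap too, GFP can persist in descendants of etv2-expressing cells, and no library without the trap was analysed here. With 1 library per genotype no difference has a replicate check, cells are not replicates, and no p-value was computed.

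The heterozygous library gave 1608 cells with a median of 10036.5 UMIs, and the homozygous library gave 473 cells with a median of 13079 UMIs. No cell barcode was shared between them. Levels are given as counts per 1000000 UMIs (CPM). The gene etv2 was at 290.2 CPM in the heterozygous and 15.13 CPM in the homozygous cells, and 48 of its 95 homozygous counts lay in 3 progenitor-like cells, whose level of 1238 CPM was near the 1280 CPM of heterozygous progenitor-like cells. The labels call the cells endothelial, yet only 37.5% of heterozygous cells (603 cells) and 0.846% of homozygous cells (4 cells) were progenitor-like or endothelial-like by their markers. The cells fell into 11 classes, named from markers, with the listed cell cycle genes left out of the clustering. Of these, 8 were represented by 20 or more cells from each library, whereas the homozygous library held 3 progenitor-like cells, 1 endothelial-like cell and 3 macrophage-like cells. A cluster of 246 heterozygous and 103 homozygous cells with gadd45aa and cdkn1a among its leading genes is called the cluster of p53 target genes. Free RNA was estimated from hemoglobin counts at 4.29% of heterozygous and 2.05% of homozygous UMIs, in cells outside the erythroid-like class and the cluster of p53 target genes.

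Most members were well measured. In the heterozygous library 34 of the 37 rows had at least 50 counts. The replication sum held 22926 counts there and 9273 counts in the homozygous library, and the mitosis sum held 12587 and 6555 counts. The gene pcna, the sliding clamp that holds polymerases on DNA, supplied 31.8% of the heterozygous and 27.8% of the homozygous replication counts. The ubiquitin-conjugating enzyme ube2c, which works with the anaphase-promoting complex, supplied 18.3% and 18.2% of the mitosis counts. Both rrm2 rows, ENSDARG00000020711 and ENSDARG00000078069, were abundant and are kept apart, although reads of such near copies can be split between them. The dUTPase gene dut was listed at 0 in both libraries, the checkpoint kinase bub1 had 2 and 8 counts, and the row of ube2c under ENSDARG00000101618 had 1 and 0 counts, so these rows carry no result.

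Across the 11 heterozygous classes the replication sum was highest in neural-like cells, at 3169 CPM (exact Poisson 95% interval 3047 to 3295), and lowest in progenitor-like cells, at 754.5 CPM (718.6 to 791.8), a ratio of 4.2 between these classes. Erythroid-like cells were next at 2012 CPM, followed by mesenchyme-like cells at 1915 CPM and tailbud-like cells at 1734 CPM. The intervals of these neighbours overlapped, and neural-like cells stood above them. Endothelial-like cells had 938.2 CPM, macrophage-like cells 984.6 CPM and epidermal-like cells 901.2 CPM, and here too the neighbouring intervals overlapped. Progenitor-like cells stood below these. All such intervals cover counting error only and leave out the variation between cells and embryos.

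The mitosis sum gave another order. It was highest in tailbud-like cells at 1220 CPM (1103 to 1346), neural-like cells at 1179 CPM (1105 to 1257) and mesenchyme-like cells at 1168 CPM (1092 to 1247), whose intervals overlapped. The 21 cardiomyocyte-like cells came next at 974.5 CPM (817.1 to 1153), an interval that overlapped each of these. The lowest level was that of macrophage-like cells, at 320.5 CPM (299.4 to 342.7), a ratio of 3.81 to the highest. Progenitor-like cells, last in replication, had 764.6 CPM (728.4 to 802.1) of the mitosis sum, close to the 744.2 CPM of all heterozygous cells. The number of replication counts per mitosis count was accordingly 3.07 in macrophage-like, 2.69 in neural-like, 2.23 in erythroid-like, 1.60 in endothelial-like and 0.987 in progenitor-like cells, against 1.82 over the library.

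**Figure D1:**
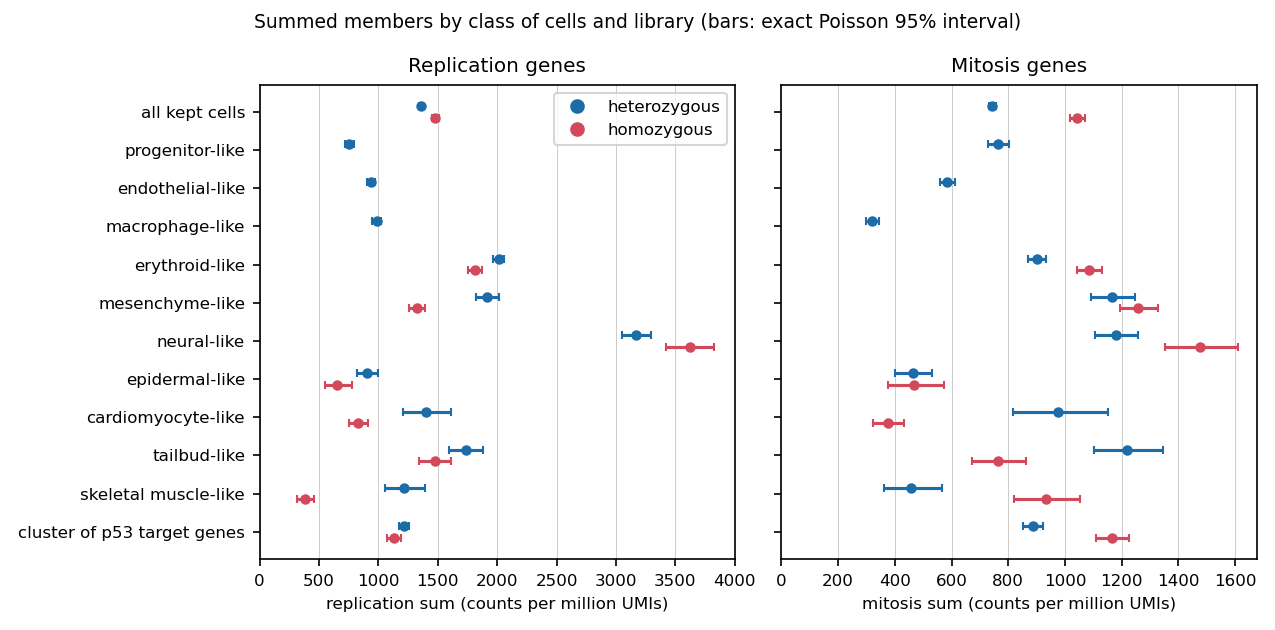
Summed level of the replication members (left) and the mitosis members (right) in CPM by class of cells, for the heterozygous and the homozygous library, with exact Poisson 95% intervals as bars. Neural-like cells of both libraries lie highest for replication (3169 CPM heterozygous, 3621 CPM homozygous) and heterozygous macrophage-like cells lowest for mitosis (320.5 CPM), and classes with under 20 homozygous cells have no homozygous point.

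In progenitor-like cells, which carry tal1, lmo2 and etv2, the summed replication level was low while the summed mitosis level was not. The median cell was low in both, at 491.3 against 928.1 CPM over the library for replication and 179.6 against 353 CPM for mitosis. The tenth of cells with the most mitosis counts held 50.5% of them, against 45.7% over the library. The replication sum was 0.522 times that of all other heterozygous cells (exact interval 0.496 to 0.549), and the mitosis sum was 1.03 times (0.979 to 1.09). Of the 16 replication rows with at least 50 counts, 12 were at least 1.5-fold lower, 0 were that much higher and the median ratio was 0.406. For comparison, 29.5% of all 8629 genes tested in this way were at least 1.5-fold lower, 15.6% were that much higher, and the median ratio of all genes was 0.906. Of 18 mitosis rows, 0 passed 1.5-fold in either direction.

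The largest differences were in gins2, ccne2 and tyms, followed by the helicase genes. The genes mcm2 to mcm7 encode the hexamer that unwinds DNA at the fork, and gins2 encodes a subunit of its activating complex. In progenitor-like cells gins2 was at 7.30 CPM and elsewhere at 39.3 CPM (0.186, 0.105 to 0.304), and mcm3 was at 16.4 against 55.5 CPM (0.296, 0.206 to 0.413). The ratios of mcm2, mcm4, mcm5 and mcm6 lay between 0.306 and 0.454, and that of mcm7 was 0.656. Cyclin E gene ccne2, which drives entry into S phase, had a ratio of 0.249 (0.123 to 0.452).

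Members that supply nucleotides divided. Thymidylate synthase tyms, which makes dTMP, was at 8.21 CPM in progenitor-like cells against 29.3 CPM (0.281, 0.165 to 0.449). By contrast rrm1, the large subunit of ribonucleotide reductase, was at 37.9 against 35.3 CPM (1.07, 0.840 to 1.35), the sole replication row above 1. Its small subunit rrm2 had ratios of 0.660 for ENSDARG00000020711 and 0.887 for ENSDARG00000078069. The clamp gene pcna was at 191.1 against 466.0 CPM (0.410, 0.371 to 0.453), and slbp, which binds histone mRNA, had a ratio of 0.402.

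The mitosis members of progenitor-like cells spread around 1. The row of ube2c with counts was at 167.9 against 131.6 CPM (1.28, 1.14 to 1.43) and cdk1, the kinase that drives mitotic entry, was at 48.4 against 38.7 CPM (1.25, 1.01 to 1.54). The proliferation antigen gene mki67 was the lowest at 68.4 against 98.4 CPM (0.696, 0.584 to 0.824). Intervals of the remaining mitosis rows contained 1.

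Other genes of the cycle, taken from a list of 128 of which 122 are in the file, were counted likewise. In progenitor-like cells 8 of 10 tested origin licensing genes, 16 of 21 replisome genes and 8 of 10 genes of nucleotide supply and chromatin assembly were at least 1.5-fold lower, with 0 higher in each group. Of the kinetochore genes 2 of 13 were that much lower, and of the spindle genes 4 of 24 were lower and 2 higher. Over all genes 29.5% were that much lower and 15.6% higher, so these kinetochore and spindle counts were not above the shares of all genes. The lowest ratios were those of the polymerase epsilon subunit pole2 (0.159), the repressor e2f8 (0.163) and thymidine kinase tk1 (0.201, from 2 counts in these cells), and the highest was that of the CDK inhibitor cdkn1bb (1.84, 1.58 to 2.12).

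Endothelial-like cells were below the other heterozygous cells in both sums, at 0.645 times (0.620 to 0.670) for replication and 0.749 times (0.713 to 0.786) for mitosis. Of 16 replication rows 10 were at least 1.5-fold lower and 0 higher, and of 18 mitosis rows 6 were lower and 0 higher, beside 27.0% of all genes lower and 18.6% higher. The share of mitosis rows that were lower was thus not far above that of all genes. All 16 replication ratios were below 1, from 0.435 for ccne2 to 0.885 for mcm5. Among the mitosis rows ccnb1, the cyclin B partner of cdk1, was lowest at 12.6 against 32.4 CPM (0.388, 0.275 to 0.535), and mki67 was at 52.7 against 104.5 CPM (0.505). The spindle kinase aurka was the exception at 29.7 against 22.0 CPM (1.35, 1.07 to 1.71).

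Set beside progenitor-like cells of the same library, endothelial-like cells had more replication and less mitosis transcript. The ratios of endothelial-like over progenitor-like cells were 1.24 (1.17 to 1.32) for replication and 0.766 (0.717 to 0.818) for mitosis. The lower mitosis level held for the sum but not for the median cell, at 189.1 CPM in endothelial-like and 179.6 CPM in progenitor-like cells. Of 15 replication rows tested 8 were at least 1.5-fold higher in endothelial-like cells, led by mcm5 (2.69, 1.76 to 4.23) and gins2 (2.52), and only rrm1 was that much lower (0.583), beside 18.3% of the 5346 genes tested higher and 10.5% lower. Of 17 mitosis rows 16 had a ratio below 1, with ccnb1 (0.372) and cdk1 (0.552) more than 1.5-fold lower.

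Within the endothelial-like cells, arterial-like, venous-like and endocardial-like subclusters differed. The replication sum was 1168 CPM in 91 arterial-like cells, 512.8 CPM in 63 venous-like cells and 1280 CPM in 55 endocardial-like cells. The mitosis sum was 516.6, 409.2 and 866.4 CPM in the same order. A subcluster of 114 cells with no name had 838.4 and 644.7 CPM at a median of 5947.5 UMIs per cell, against 8925 in the arterial-like cells, and another of 54 cells had 886.3 and 529.0 CPM.

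Arterial-like cells were above the other endothelial-like cells in replication (1.36 times, 1.26 to 1.47) and below them in mitosis (0.848 times, 0.760 to 0.944). Of 15 replication rows 5 were at least 1.5-fold higher, beside 15.9% of the 4070 genes tested, among them pcna at 378.5 against 244.5 CPM (1.55, 1.35 to 1.78) and rrm2 (ENSDARG00000078069) at 134.5 against 72.7 CPM. Venous-like cells were low in both sums, at 0.4997 times (0.441 to 0.565) and 0.658 times (0.570 to 0.756). There, 12 of 15 replication rows were at least 1.5-fold lower, beside 15.2% of all genes, and pcna was at 134.0 against 309.0 CPM (0.434, 0.338 to 0.550).

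Endocardial-like cells were high in both, at 1.45 times (1.33 to 1.59) for replication and 1.61 times (1.44 to 1.80) for mitosis. Of 15 replication rows 6 and of 13 mitosis rows 8 were at least 1.5-fold higher, beside 10.7% of all genes. The mitotic kinase genes cdk1 (59.8 against 21.1 CPM) and plk1 (85.4 against 41.2 CPM) and the checkpoint target cdc20 (53.4 against 22.9 CPM) were among them. Endocardial-like over venous-like cells gave 2.497 (2.17 to 2.88) for replication and 2.12 (1.80 to 2.501) for mitosis, and the DNA ligase gene lig1 of the wider list gave 7.28 (3.82 to 15.3).

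Erythroid-like cells, the class of the embryonic globin genes, were high in replication and less so in mitosis. Their replication sum was 1.70 times (1.65 to 1.74) and their mitosis sum 1.28 times (1.23 to 1.33) that of the other heterozygous cells. All 16 replication rows had a ratio above 1 and 11 were at least 1.5-fold higher, beside 20.0% of all genes. The largest was tyms, at 60.1 against 18.0 CPM (3.34, 2.76 to 4.04), followed by gins2 (2.38) and mcm2 (2.35), and pcna was at 694.2 against 362.8 CPM (1.91, 1.82 to 2.01). The ribonucleotide reductase rows were closer to 1, between 1.15 and 1.20.

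Across the mitosis rows of erythroid-like cells the median ratio was 1.27, against 0.932 over all genes. At least 1.5-fold higher were 5 of 18 rows, a share not far above the 20.0% of all genes. These were mki67 (149.7 against 80.4 CPM), ccna2, the cyclin that acts from S phase into mitosis (101.8 against 58.2 CPM), the condensin genes ncapg (1.71) and smc4 (1.55), and ccnb1 (1.53). By contrast ube2c was at 131.7 against 137.5 CPM (0.958, 0.862 to 1.06) and birc5a, a subunit of the chromosomal passenger complex, was at 26.1 against 35.4 CPM (0.739, 0.583 to 0.927). In the wider list 16 of 21 replisome genes were at least 1.5-fold higher, against 3 of 13 kinetochore genes, a share near that of all genes. The cyclin D gene ccnd1 was at 533.8 against 163.8 CPM (3.26, 3.06 to 3.47) and the origin recognition subunit orc6 at 84.4 against 25.5 CPM (3.31).

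Macrophage-like cells had the least mitosis transcript. Their mitosis sum was 0.389 times (0.363 to 0.417) and their replication sum 0.691 times (0.663 to 0.720) that of the other heterozygous cells. All 18 mitosis rows were at least 1.5-fold lower and 6 of 16 replication rows were, beside 27.6% of all genes lower and 20.4% higher. Lowest were top2a, the topoisomerase that untangles sister DNA, at 6.36 against 25.1 CPM (0.253, 0.146 to 0.411), ccnb1 at 8.23 against 32.4 CPM (0.254), and the mitotic kinase gene pbk (0.258).

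Replication members of macrophage-like cells did not move as a block. While fen1, the flap nuclease of the lagging strand, was at 34.4 against 89.3 CPM (0.385, 0.309 to 0.477) and rrm2 (ENSDARG00000078069) at 52.0 against 135.3 CPM (0.384), the helicase genes mcm3 (1.21, 1.01 to 1.44), mcm4 (1.17, 0.945 to 1.43) and mcm6 (1.02) and slbp (1.11) were at or above the other cells. In the wider list 12 of 13 kinetochore genes and 21 of 24 spindle genes were at least 1.5-fold lower, beside 27.6% of all genes. The origin recognition gene orc1 (14.96 against 5.83 CPM, 2.57) and the cyclin E gene ccne1 (24.7 against 9.83 CPM, 2.51) were the highest.

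Neural-like and mesenchyme-like cells were high in both sums. In neural-like cells the ratio to the other heterozygous cells was 2.504 (2.402 to 2.61) for replication and 1.63 (1.53 to 1.74) for mitosis. Of 16 replication rows 12 and of 18 mitosis rows 13 were at least 1.5-fold higher, beside 18.6% of all genes. All ribonucleotide reductase rows stood out, with rrm2 (ENSDARG00000078069) at 510.0 against 102.9 CPM (4.95, 4.43 to 5.53), rrm2 (ENSDARG00000020711) at 345.9 against 80.6 CPM (4.29) and rrm1 at 125.3 against 31.2 CPM (4.02). The ratio of pcna was 2.37 and that of gins2 was 0.997 (0.657 to 1.46). Neural-like cells had the highest level of 11 of the 17 replication rows among the 11 classes.

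Mesenchyme-like cells had ratios of 1.44 (1.37 to 1.52) for replication and 1.61 (1.51 to 1.73) for mitosis. Of 18 mitosis rows 11 and of 16 replication rows 5 were at least 1.5-fold higher, beside 20.5% of all genes. The leading mitosis rows were ccnb1 at 61.3 against 27.0 CPM (2.27, 1.64 to 3.07), ube2c at 268.8 against 130.1 CPM (2.07, 1.78 to 2.39) and cdk1 at 75.7 against 38.3 CPM (1.98). The leading replication rows were rrm1 at 70.5 against 34.0 CPM (2.07) and rrm2 (ENSDARG00000020711) at 181.3 against 88.9 CPM (2.04). In the wider list 15 of 24 spindle genes and 7 of 13 kinetochore genes were at least 1.5-fold higher.

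Among the smaller classes, tailbud-like cells were high in mitosis (1.66 times, 1.498 to 1.84) and epidermal-like cells low in both (0.659 and 0.615 times). The cluster of p53 target genes had 0.882 times the replication and 1.24 times the mitosis sum of the other heterozygous cells, against a median ratio of 0.788 over all genes. Its mitosis rows top2a (1.63) and pbk (1.87) were at least 1.5-fold higher, 2 of 18, beside 3.78% of all genes. Of 16 replication rows 2, mcm5 (0.578) and rrm2 (ENSDARG00000078069, 0.523), were that much lower, beside 37.2% of all genes.

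**Figure D2:**
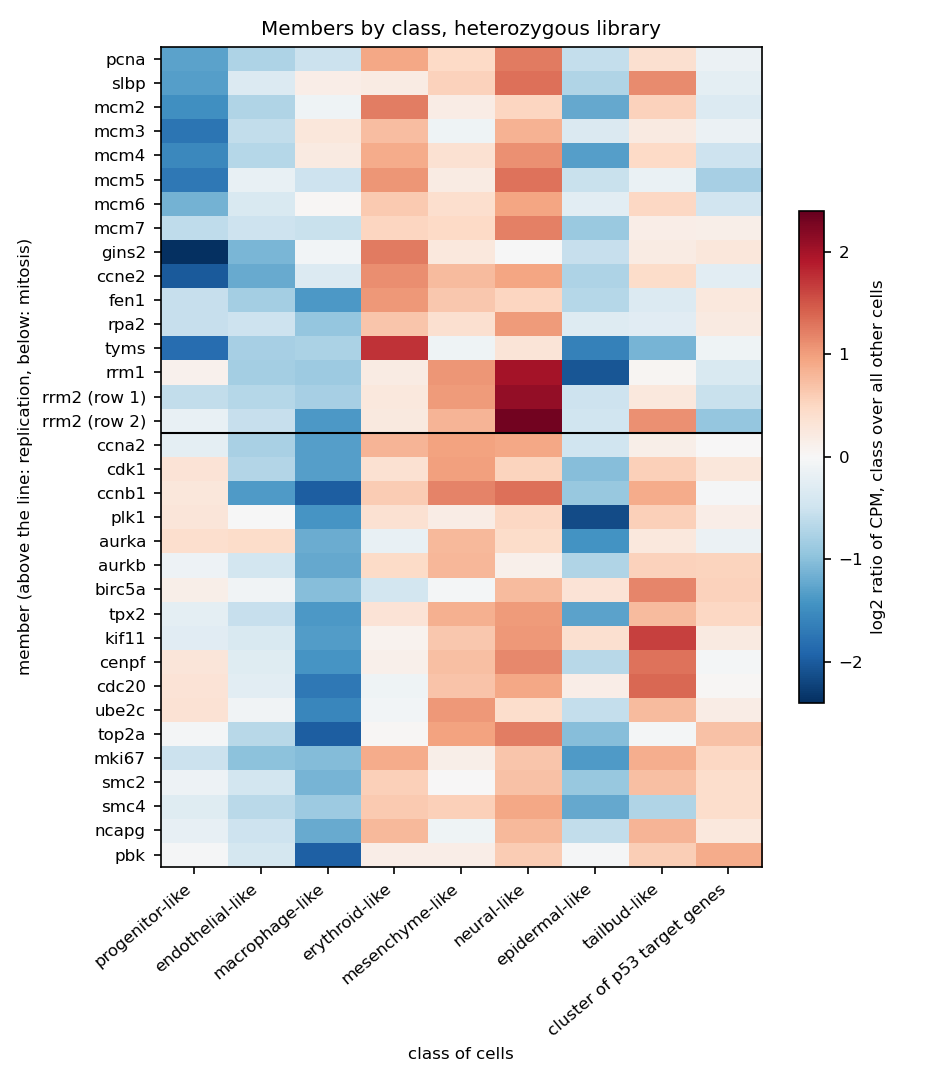
Log2 ratio of CPM of each member with at least 50 counts in a class over all other heterozygous cells, by class, with replication rows above the line and mitosis rows below it. The rows rrm2 (row 1) and rrm2 (row 2) are ENSDARG00000020711 and ENSDARG00000078069, cardiomyocyte-like and skeletal muscle-like cells are left out, and the progenitor-like column is low above the line only whereas the macrophage-like column is low mainly below it.

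CDK inhibitors, which hold back the cycle, were also taken from the wider list. The gene cdkn1ca was at 298.2 CPM in neural-like cells against 52.1 CPM in the other heterozygous cells (5.73, 4.94 to 6.62), at 218.1 CPM in epidermal-like cells and at 7.48 CPM in macrophage-like cells. The related cdkn1bb was at 107.2 CPM in progenitor-like and 96.0 CPM in endothelial-like cells and at 27.6 CPM in erythroid-like cells. The gene cdkn1a had 43 counts in the cluster of p53 target genes (16.1 CPM), which was named partly from this gene. All other heterozygous cells together held 28 counts of it, with 1 in macrophage-like, 1 in mesenchyme-like and 0 in neural-like cells. The neural-like class thus had the highest level of cdkn1ca and of the replication sum among the 11 classes.

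The sums were also read cell by cell, after each cell with at least 5000 UMIs was thinned to that number so that depth was equal. This kept 1289 heterozygous and 397 homozygous cells and left out 319 and 76. Of the thinned heterozygous erythroid-like cells 47.0% (exact binomial interval 40.5 to 53.6) had at least 10 replication UMIs and 0.855% had 0, whereas of the macrophage-like cells 51.5% (44.4 to 58.5) had 0 mitosis UMIs. Of the progenitor-like cells 36.5% had 0 mitosis UMIs and 13.3% had at least 10, and a similar spread occurred elsewhere, with 31.3% and 26.3% in homozygous mesenchyme-like and 31.7% and 14.6% in endocardial-like cells. Over all thinned heterozygous cells these shares were 28.2% and 9.78%. Free RNA alone would give 0.344 replication and 0.183 mitosis UMIs per thinned heterozygous cell.

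Cells were then counted by whether each sum was high. Of the 1289 thinned heterozygous cells 304 had at least 10 replication UMIs only, 106 had at least 10 mitosis UMIs only, 20 had both and 859 had neither, where the product of the margins gives 31.7 both. In progenitor-like cells 24 were high for mitosis, 17 for replication and 0 for both, against 2.25 from the margins, and in macrophage-like cells 5, 36 and 0, against 0.874. Of 67 neural-like cells 11 were high for both, 32 for replication only and 5 for mitosis only, and the margins give 10.3 for both. In heterozygous erythroid-like cells 3 were high for both, against 8.93. These margins are a description, and no test was made.

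The sums ran against each other in erythroid-like cells of both libraries and in homozygous neural-like cells. Across 234 thinned heterozygous erythroid-like cells Pearson's r was -0.38 and Spearman's rho -0.37, and across 116 homozygous cells they were -0.44 and -0.49. Heterozygous erythroid-like cells with at least 10 mitosis UMIs held 5.63 replication UMIs on average, and those with 0 mitosis UMIs held 14.9. Across 23 homozygous neural-like cells they were -0.45 and -0.41, whereas across 67 heterozygous neural-like cells they were 0.06 and 0.22. The coefficients were -0.25 and -0.13 in 65 heterozygous and -0.21 and -0.23 in 80 homozygous mesenchyme-like cells. They were -0.22 and -0.10 in 41 endocardial-like cells, 0.05 and 0.25 in 181 progenitor-like cells, and 0.04 and 0.23 in 206 macrophage-like cells, where many cells are low in both. These coefficients describe cells of 1 library that share a thinning depth, and the total UMIs before thinning had an r with the mitosis sum of 0.14 over all heterozygous and 0.28 over all homozygous cells, whose part in these values was not tested.

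Each member followed its own sum more than the other. Over 1289 cells, with the member itself left out of its sum, all 16 replication rows and all 18 mitosis rows had a higher r with their own sum, with medians of 0.28 against -0.02 for replication and 0.37 against 0.01 for mitosis. The tightest were pcna (0.65 with replication, -0.01 with mitosis) and ube2c (0.59 with mitosis, -0.05 with replication). The gene ccna2 had the highest r with the other sum, at 0.23 beside 0.31 with its own, and the condensin gene smc4 was loosest, at 0.11 with its own sum. In sparse counts such values shrink with the number of UMIs, so their order among members is not read as a difference in biology.

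**Figure D3:**
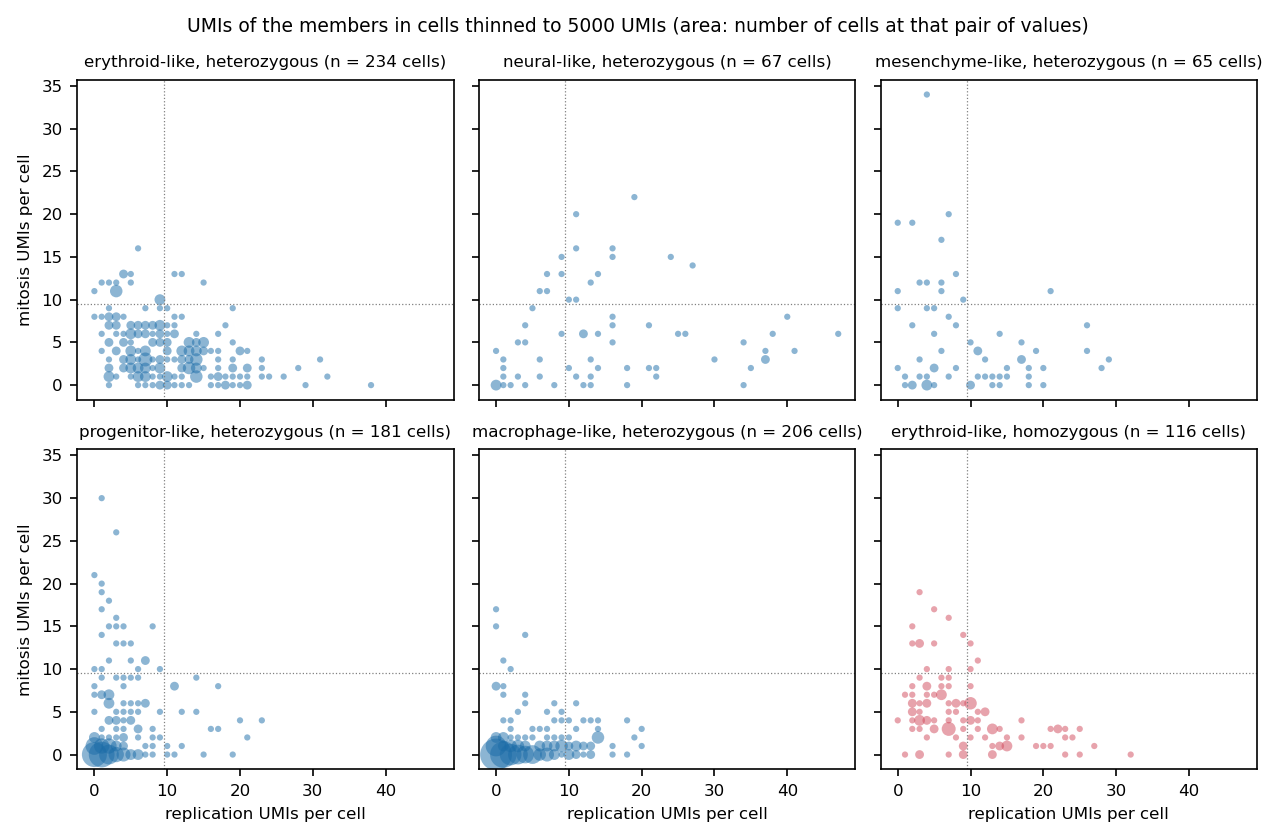
Replication UMIs (horizontal) against mitosis UMIs (vertical) of the members in single cells thinned to 5000 UMIs, in 6 groups of cells, with the area of a point for the number of cells and dotted lines at the limit of 10 UMIs. In erythroid-like cells of both libraries the mitosis values descend to the right (r of -0.38 and -0.44), and the upper right quadrant holds 0 progenitor-like, 0 macrophage-like and 11 neural-like cells, against 2.25, 0.874 and 10.3 from the margins.

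Outside both lists, the genes whose level went most with the replication sum over 1608 heterozygous cells were kiaa0101 (r = 0.60), mibp (0.51) and zgc:110540 (0.50), of 6710 genes ranked. The next were pole4, a polymerase epsilon subunit, and rbbp4, a histone chaperone, at 0.44 each, esco2, a cohesin acetyltransferase (0.42), and the chromatin remodeler gene hells (0.41). With the mitosis sum the leading genes were kpna2 (0.55), si:ch211-69g19.2 (0.54) and dlgap5, which binds spindle microtubules (0.54), followed by g2e3 (0.49). Of 91 genes of the wider list ranked alike, stmn1a (0.57), rpa3 (0.50) and lig1 (0.46) led for replication and the spindle genes nusap1 (0.63) and aspm (0.60) for mitosis. These r cover cells of all classes, and no r within a class was computed for these genes.

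Between the genotypes, the homozygous library as a whole held more mitosis transcript. The mitosis sum was 744.2 CPM (731.2 to 757.3) in the heterozygous and 1044 CPM (1019 to 1070) in the homozygous library, a ratio of 1.40 (1.36 to 1.45). The replication sum was 1356 and 1477 CPM, a ratio of 1.09 (1.06 to 1.12). Of 18 mitosis rows 17 had a ratio above 1 and 7 were at least 1.5-fold higher, against 0 of 16 replication rows, beside 11.7% of the 9471 genes tested, and the median ratio was 1.43 for mitosis rows, 1.15 for replication rows and 0.985 for all genes.

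The largest ratio was that of kif11, the motor that pushes spindle poles apart, at 10.2 CPM in the heterozygous and 24.2 CPM in the homozygous library (2.37, 1.89 to 2.96). Its spindle partner tpx2 was at 36.8 and 58.6 CPM (1.59, 1.40 to 1.82). Also past 1.5-fold were smc4, birc5a, cenpf, top2a and cdk1, between 1.51 and 1.58. The exception was pbk, at 26.8 and 26.6 CPM (0.991, 0.825 to 1.19).

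Replication members were closer to 1. The highest were mcm7 at 77.1 and 102.1 CPM (1.32, 1.20 to 1.46) and mcm3 at 50.4 and 64.7 CPM (1.28, 1.14 to 1.45). Slightly lower in the homozygous library were pcna at 430.4 and 410.9 CPM (0.955, 0.912 to 0.999) and gins2 at 35.2 and 32.3 CPM (0.919, 0.780 to 1.08). In the wider list 11 of 25 spindle genes and 6 of 14 kinetochore genes were at least 1.5-fold higher and 0 lower, against 2 of 21 replisome genes higher and 1 lower. Over all genes 11.7% were that much higher, a share the replisome genes were near. The share of all genes lower is not given for this comparison. The separase gene espl1, which cuts cohesin at anaphase, was at 6.92 and 16.4 CPM (2.37, 1.80 to 3.12).

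The libraries differ in which cells they hold, and the whole-library values mix this with levels within cells. Progenitor-like, endothelial-like and macrophage-like cells, which with epidermal-like cells had the lowest replication sums, made up 51.7% of heterozygous and 1.48% of homozygous cells. With only the 8 classes compared in both libraries, a calculation added after seeing the data, the homozygous over heterozygous ratio was 0.838 for replication, opposite in direction to the 1.09 of the whole library, and 1.14 for mitosis. When these classes were also weighted by their shares of the heterozygous cells, the ratios were 0.905 and 1.18. The median UMIs per cell were also higher in the homozygous library, 13079 against 10036.5, and its part in these ratios was not tested.

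**Figure D4:**
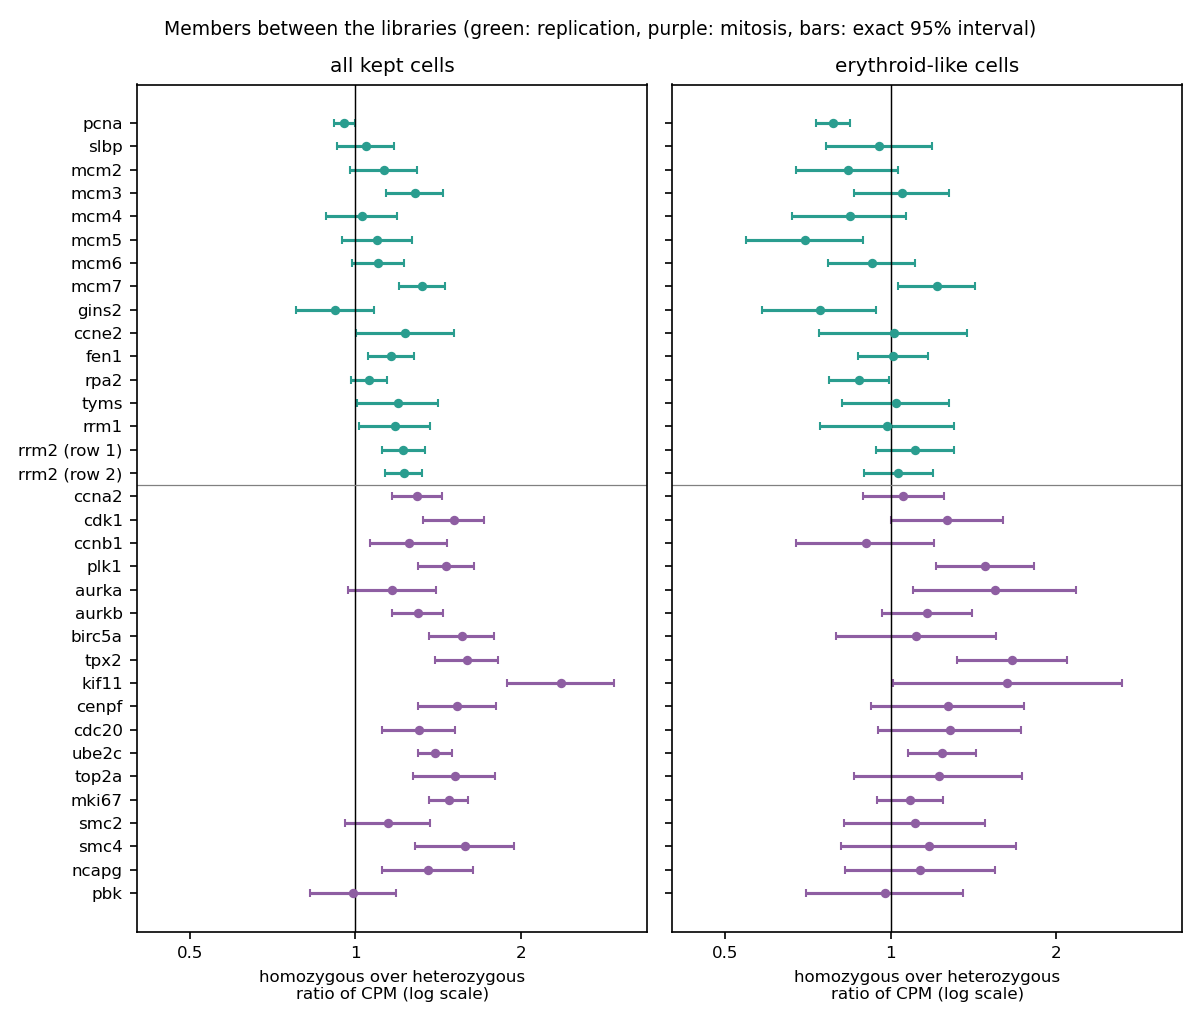
Homozygous over heterozygous ratio of CPM (log scale) of each member with exact 95% intervals, over all kept cells (left) and in erythroid-like cells (right), with replication members in green above the line and mitosis members in purple below it. The rows rrm2 (row 1) and rrm2 (row 2) are ENSDARG00000020711 and ENSDARG00000078069, and over all cells kif11 lies farthest right at 2.37 whereas pcna lies at 0.955.

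Erythroid-like cells allowed the best comparison within a class, with 256 heterozygous and 123 homozygous cells. The replication sum was 2012 and 1814 CPM, a ratio of 0.902 (0.867 to 0.938), and the mitosis sum was 901.6 and 1085 CPM, a ratio of 1.20 (1.14 to 1.27). Of 18 mitosis rows 16 were above 1 and 3 at least 1.5-fold higher, beside 5.66% of the 4980 genes tested. Of 16 replication rows 7 were above 1 and 0 passed 1.5-fold in either direction, beside 9.88% of all genes lower. The median ratio was 1.20 for mitosis rows, 0.971 for replication rows and 0.945 for all genes. Homozygous erythroid-like cells were deeper, with a median of 18457 against 14413 UMIs, and in the main erythroid-like cluster hemoglobin made up 4.82% of UMIs against 3.32%. The part of either in these ratios was not tested.

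The mitosis rows past 1.5-fold in erythroid-like cells were tpx2 at 43.8 CPM in heterozygous and 72.9 CPM in homozygous cells (1.67, 1.32 to 2.095), kif11 at 10.7 and 17.5 CPM (1.63, 1.01 to 2.64) and aurka, which tpx2 protein activates, at 21.2 and 32.8 CPM (1.55, 1.1 to 2.18). The kinase gene plk1 was just below the limit at 58.0 and 86.3 CPM (1.49, 1.21 to 1.83).

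On the replication side of erythroid-like cells pcna was at 694.2 and 545.1 CPM (0.785, 0.732 to 0.842), mcm5 at 64.7 and 45.2 CPM (0.699, 0.546 to 0.891) and gins2 at 65.3 and 48.5 CPM (0.743, 0.583 to 0.940), whereas mcm7 was at 101.5 and 123.2 CPM (1.21, 1.03 to 1.43). With pcna left out the ratio of the sum was 0.963. In the wider list 4 of 12 kinetochore genes and 3 of 16 spindle genes were at least 1.5-fold higher and 0 lower, and 3 of 19 replisome genes were lower and 0 higher. Over all genes 5.66% were that much higher and 9.88% lower. The replisome share was thus not far above that of all genes lower. The genes espl1 (2.24) and ndc80, a kinetochore gene (2.22), were highest and the polymerase delta subunit pold3 (0.523) and the clamp loader subunit rfc3 (0.635) lowest.

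Mesenchyme-like cells showed the largest gap in replication among the classes with over 50 cells in both libraries, 71 heterozygous and 84 homozygous cells here. The replication sum was 1915 and 1323 CPM, a ratio of 0.691 (0.641 to 0.743), while the mitosis sum was 1168 and 1259 CPM, a ratio of 1.08 (0.990 to 1.18). Of 14 replication rows 5 were at least 1.5-fold lower and 1 higher, beside 8.77% of the 2816 genes tested lower and 8.24% higher. The lower rows were gins2 (0.473), fen1 at 122.6 and 60.2 CPM (0.491, 0.352 to 0.682), pcna at 589.7 and 292.5 CPM (0.496, 0.428 to 0.574), rrm1 (0.614) and slbp (0.629), and mcm3 was the higher one at 47.0 and 75.3 CPM (1.60, 1.07 to 2.45).

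Mitosis rows of mesenchyme-like cells went in both directions. Higher in the homozygous library were kif11 (2.403, 1.24 to 5.03), birc5a at 32.6 and 62.1 CPM (1.90, 1.19 to 3.15) and plk1 (1.51), and ccna2 was lower at 125.2 and 71.5 CPM (0.571, 0.417 to 0.779). Replication counts per mitosis count were 1.64 and 1.05. In the wider list 5 of 8 replisome genes were at least 1.5-fold lower, beside 8.77% of all genes. There, stmn1a was at 562.3 and 278.4 CPM (0.495), and cdkn1ca was at 78.3 and 162.7 CPM (2.08, 1.54 to 2.84). The gene stmn1a was also lower in homozygous neural-like (0.470), epidermal-like (0.549), cardiomyocyte-like (0.188) and skeletal muscle-like cells (0.146), with intervals below 1. Tailbud-like cells were likewise higher in cdkn1ca (1.97, 1.39 to 2.83), whereas its intervals in epidermal-like and skeletal muscle-like cells contained 1. Between genotypes both genes are given only where they were among the 3 highest or 3 lowest ratios of the wider list. Their values in the other classes, erythroid-like cells among them, are not given.

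In neural-like cells both sums were higher in the homozygous library, at 3169 and 3621 CPM (1.14, 1.07 to 1.22) for replication and 1179 and 1478 CPM (1.25, 1.12 to 1.40) for mitosis, from 79 and 23 cells. Of 13 replication rows 1 was at least 1.5-fold higher and 1 lower, and of 12 mitosis rows 3 were higher and 2 lower, beside 9.65% of the 1949 genes tested higher and 13.4% lower. The higher rows were plk1 (1.79, 1.16 to 2.75), ube2c at 179.2 and 296.2 CPM (1.65, 1.27 to 2.15), aurkb (1.62) and mcm2 (1.65). Below this limit, rrm2 (ENSDARG00000078069) was at 510.0 and 720.1 CPM (1.41, 1.20 to 1.66) and pcna at 958.6 and 1144 CPM (1.19, 1.05 to 1.35). Intervals of the replication rows other than these and mcm2 contained 1. Among them was the other rrm2 row, ENSDARG00000020711, at 345.9 and 310.7 CPM (0.898, 0.712 to 1.13). The homozygous cell with the most replication counts held 158 of 1247. Median UMIs per cell were 10116 in heterozygous and 15126 in homozygous neural-like cells. The part of this depth in the ratios was not tested. The lower rows, mcm4, cenpf and top2a, had 11 to 17 homozygous counts each and intervals that contained 1.

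The cluster of p53 target genes gave 0.926 (0.870 to 0.985) for replication and 1.31 (1.23 to 1.40) for mitosis. In its largest part at a finer clustering, hemoglobin made up 0.464% of heterozygous and 0.925% of homozygous UMIs. Outside this class and the erythroid-like cells hemoglobin made up 0.0512% and 0.0470%. Median UMIs per cell in that part were 16148 and 21856. The role of hemoglobin or depth in these ratios was not tested. Of 18 mitosis rows 4 were at least 1.5-fold higher, beside 7.99% of the 3869 genes tested. They were kif11 (2.43), birc5a at 45.9 and 90.6 CPM (1.97, 1.52 to 2.56), cenpf (1.78) and cdk1 (1.501), while pbk was lower (0.657). Of 16 replication rows mcm5 was at least 1.5-fold higher (1.52) and gins2 lower (0.575), beside 10.2% of all genes lower, and the median ratio was 0.998. The ratio of the replication sum was 0.969 without pcna. It was 0.994 when the cells were clustered at resolution 1.0, from the 127 heterozygous and 54 homozygous cells that kept this name. Other cells of the class fell into clusters without a name there.

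Among the smallest classes the ratios spread widely. In cardiomyocyte-like cells, 21 heterozygous and 63 homozygous, the replication ratio was 0.592 (0.498 to 0.706) and the mitosis ratio 0.385 (0.307 to 0.484). In skeletal muscle-like cells, 20 and 22, the replication sum was 1215 and 381.9 CPM (0.314, 0.247 to 0.398) and the mitosis sum 455.5 and 931.5 CPM (2.05, 1.59 to 2.66). Their median UMIs per cell were 7947 heterozygous and 14156.5 homozygous, and the part of depth was not tested. Tailbud-like cells gave 0.849 and 0.627, and epidermal-like cells 0.726 and 1.01. In these classes few cells set the value: the tenth of the homozygous cardiomyocyte-like cells with the most mitosis counts held 82.1% of them. Without the UMI minimum the cardiomyocyte-like ratios were 0.307 for replication and 0.171 for mitosis.

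**Figure D5:**
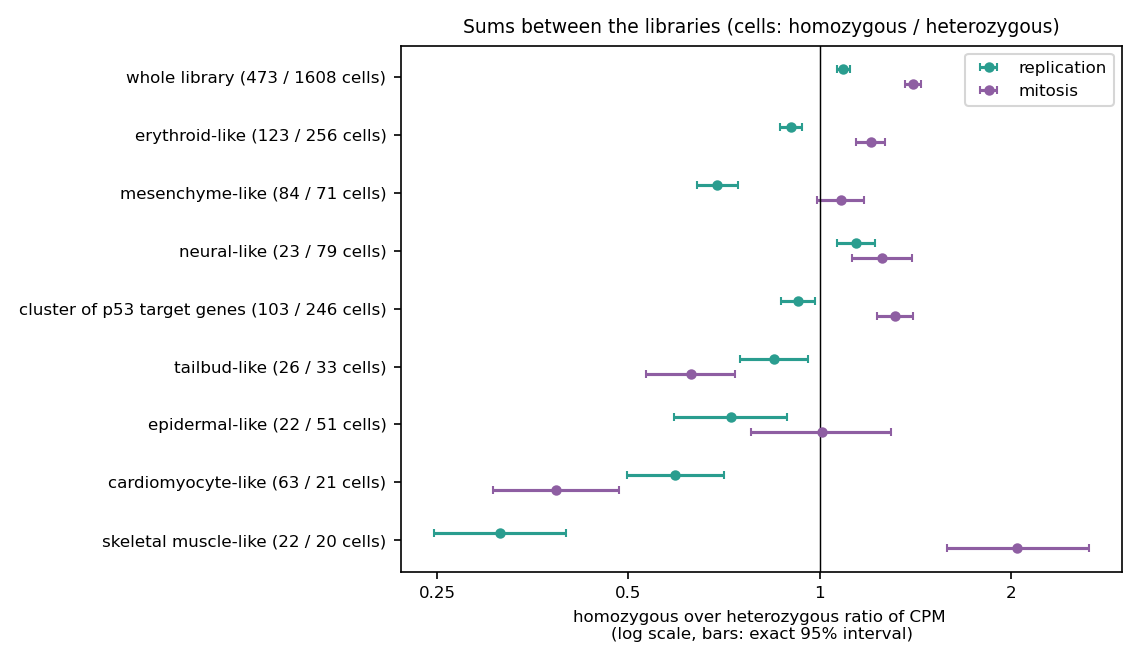
Homozygous over heterozygous ratio of CPM (log scale) of the replication and the mitosis sum over the whole library and in the 8 classes compared, with exact 95% intervals and the number of homozygous and heterozygous cells beside each name. The replication points lie left of 1 in 7 of the 8 classes, neural-like cells being the exception at 1.14, and the mitosis points lie right of 1 with intervals clear of it in erythroid-like, neural-like, skeletal muscle-like and p53 target cells and left of 1 in cardiomyocyte-like and tailbud-like cells.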

How the data were processed

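Single-cell RNA-seq was analysed in 2 libraries, 1 per genotype. The authors sorted GFP-positive cells, ran Cell Ranger (2.0.2 in the submitters' processing notes, with genome build GRCz10) and deposited raw UMI counts per gene and barcode, unfiltered and not normalized. The counts are not scaled by gene length, so levels are compared between groups of cells and not between genes.

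Barcodes were kept from 2500 UMIs upward if they had over 200 genes, no more than 3500 genes and a mitochondrial share of 5% or less. Without the UMI minimum 2049 and 588 barcodes pass, the numbers of cells the study gives. All counts summed to 19256969 heterozygous and 7244035 homozygous UMIs, and kept cells held 16913592 and 6277215 (per cell 2514 to 30674 and 2535 to 32708). Cells were clustered with Seurat 5.3.0 in R 4.3.3 (2000 variable genes, of which 1972 remained once members and listed cell cycle genes were removed, 13 principal components, 30 neighbours, SLM algorithm, resolution 0.6, total UMIs and mitochondrial share regressed). Other genes that follow the cycle were not removed. Endothelial-like cells were subclustered with 14 components at resolution 1.0. No doublet caller was run and doublets were not removed.

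A cluster was named where at least 3 markers of a class, and over 50% of those detected, were at least 2-fold higher than in the other cells with at least 10 counts, from 132 markers in 14 lists, of which 130 are in the file. The 50% limit was set after the clusters were seen, and names were rebuilt, so single cells may be named otherwise than in the study.

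Counts were summed per class and scaled to 1000000 UMIs of the class (CPM). Intervals at 95% are exact Poisson for a CPM, exact conditional binomial for a ratio and Clopper-Pearson for a share, and cover counting error only. UMIs mark molecules, so amplification copies are collapsed. A ratio was counted as higher or lower past 1.5-fold among genes with at least 50 counts over both groups, and genotypes were compared where a class had 20 or more cells from each library. Free RNA was estimated from 15 hemoglobin genes, as their share in cells over their share in empty droplets (1 to 100 UMIs). Erythroid-like cells and the cluster of p53 target genes were left out of this estimate, yet it was subtracted from every class. Random seeds were 20. Counting and figures used Python 3.11.15, numpy 2.4.6, scipy 1.17.1, pandas 2.3.3 and matplotlib 3.10.9, and the ratio script was tested on simulated data.

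Named genes are all members, up to 3 genes with the highest and 3 with the lowest ratio of the wider cell cycle list in a comparison, CDK inhibitors with at least 10 counts in a class and the 10 genes most correlated with each sum. Listed genes that led that ranking, etv2 and mpeg1.1 are named beside it. The members and lists were chosen with earlier results of these data known.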

Additional observations from a re-analysis of the deposited data

Results flagged for a closer look

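The homozygous over heterozygous ratio of a sum lay on opposite sides of 1 in different classes, with the interval clear of 1 on both sides. For replication it was 1.14 in neural-like cells, against 0.902 in erythroid-like cells, 0.926 in the cluster of p53 target genes, 0.849 in tailbud-like, 0.726 in epidermal-like, 0.691 in mesenchyme-like, 0.592 in cardiomyocyte-like and 0.314 in skeletal muscle-like cells. For mitosis it was 1.20 in erythroid-like cells, 1.25 in neural-like cells, 1.31 in the cluster of p53 target genes and 2.05 in skeletal muscle-like cells, against 0.385 in cardiomyocyte-like and 0.627 in tailbud-like cells. The replication values of tailbud-like cells and of the cluster of p53 target genes were 0.968 and 0.969 without pcna. Their median replication member ratios were 1.11 and 0.998. Clustering at resolution 1.0 gave 0.994 for the cluster of p53 target genes, from the 127 heterozygous and 54 homozygous cells that kept this name. In erythroid-like cells the median replication member ratio was 0.971, against 0.945 over all genes. The neural-like replication value rested on 23 homozygous cells, and the cell with the most replication counts held 158 of their 1247. In skeletal muscle-like cells the median cell had 207.6 CPM of the mitosis sum in the heterozygous and 219.1 CPM in the homozygous library. The homozygous skeletal muscle-like cell with the most mitosis counts held 71 of 261. Median UMIs per cell, heterozygous and homozygous, were 7947 and 14156.5 in skeletal muscle-like and 10116 and 15126 in neural-like cells. The part of depth was not tested. With 1 library per genotype the difference between classes was not tested.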

How the results depend on the processing

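No paired analysis was possible because each genotype has 1 library. Among sums whose interval lay clear of 1, the replication ratio of the whole library alone turned direction under the alternatives run: it was 0.838 with only the 8 classes compared in both libraries and 0.905 with these also weighted by their heterozygous shares, against 1.09, and 1.15 without pcna. The mitosis ratio of the whole library was 1.14 with those classes, 1.18 with the weighting and 1.29 with each cell weighted equally. Without pcna the replication ratio was 0.963 in erythroid-like cells between genotypes, 0.777 in mesenchyme-like cells between genotypes and 0.576 in progenitor-like over other cells. Without ube2c the mitosis ratio was 0.706 in endothelial-like and 0.979 in progenitor-like over other cells, the latter below 1 with the main interval containing 1. With each cell weighted equally the replication ratio was 0.948 in erythroid-like and 1.27 in neural-like cells between genotypes, and 0.673 in endothelial-like over other cells. Subtracting free RNA gave a mitosis ratio of 0.361 in macrophage-like cells, and without the UMI minimum the replication ratio in progenitor-like cells was 0.495. Leaving out pcna or ube2c, leaving out the largest cell, restricting the classes and weighting them were chosen after seeing the data. Of 224 member ratios, 0 of those past 1.5-fold with an interval clear of 1 turned direction. Member ratios closer to 1 than 1.5-fold were not checked for a turn. Of the 224, 5 moved beyond their interval with cells weighted equally, 1 without the largest cell and 1 without the UMI minimum. Restricting the classes and weighting them were run for the sums only, so no member ratio was checked under the settings that turned a sum. In small classes single cells counted: without the largest cell the mitosis ratio between genotypes was 0.719 in epidermal-like and 0.497 in tailbud-like cells, and with cells weighted equally skeletal muscle-like cells gave 0.467 for replication and 1.57 for mitosis. Depth limits rows with under 50 counts, and 1 library per genotype leaves embryo-to-embryo variation unmeasured.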

Other observations

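At a finer clustering the macrophage-like cells formed 2 clusters that differed in both sums. In 122 cells with mpeg1.1, a macrophage gene, at 7.17 CPM the replication sum was 1110 CPM (1056 to 1167) and the mitosis sum 359.8 CPM (329.0 to 392.7). In 106 cells with mpeg1.1 at 91.5 CPM the sums were 847.5 CPM (797.8 to 899.5) and 277.6 CPM (249.4 to 308.0). These clusters were chosen after the values were seen.

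Heterozygous empty droplets held 1604 CPM of the replication and 853.9 CPM of the mitosis sum, and homozygous ones 1499 and 1084 CPM, near the levels of the cells.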
